A study of Mus musculus with 18 samples.

Results

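Retnla and Retnlg encode 2 small secreted proteins of the mouse resistin family, RELM-alpha and RELM-gamma, and they are 2 of the 19938 genes that the array measured with a probe set of a single gene symbol. Each was read from the probe set annotated to that symbol alone, 10436095 for Retnla and 10436100 for Retnlg, and neither gene had a further probe set. Both were chosen by their log2 values in monocytes, which differed between the groups, so every comparison within monocytes, and between monocytes and neutrophils, describes these 2 genes and is not a test of them. The neutrophil arrays by genotype did not enter that choice and carry the test.

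The values come from bone marrow of C57BL/6 mice, sorted by flow cytometry into Ly-6C(hi) monocytes and neutrophils, on 18 arrays. The groups labelled Zeb2-deficient carried floxed Zeb2 alleles with the Mx1-Cre transgene, Zeb2(fl/fl);Mx1-Cre(tg), and gave 4 arrays of each cell type. The poly(I:C) controls carried the floxed alleles without Cre, Zeb2(fl/fl), and also gave 4 arrays of each cell type. Poly(I:C), which imitates viral RNA and switches on Mx1-Cre through interferon, was injected 2 times in a 48 h period at 150 µg in both of these groups, 3 weeks before the marrow was collected. A further group, untreated Zeb2(fl/fl) controls, had 1 array of each cell type. The controls carried no Cre, so Cre itself and the loss of Zeb2 cannot be told apart, and Mx1-Cre acts in all cells that respond to interferon, not in myeloid cells alone. The labels give no ages and do not state whether each array stands for its own mouse, so p-values rest on a spread between samples that may be only technical.

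The 19 measured Ly-6C(hi) monocyte markers summed to a linear intensity of 13523 to 26722 in monocytes labelled Zeb2-deficient and 26499 to 30191 in control monocytes, against 2551 to 3158 in neutrophils labelled Zeb2-deficient and 2675 to 2929 in control neutrophils. Zeb2 itself read 8.74 to 9.84 (log2) in monocytes labelled Zeb2-deficient and 9.86 to 10.08 in control monocytes (limma adjusted p = 0.272). The highest of these values in monocytes labelled Zeb2-deficient, 9.84, was that of replicate 2. In neutrophils Zeb2 read 7.10 to 8.25 in the samples labelled Zeb2-deficient and 6.86 to 7.54 in controls (limma adjusted p = 0.972). The change did not pass in either cell type, and the neutrophil values do not show the labelled loss. Directions below are those of the labels. The arrays also fell into 2 sets in the order of deposition, called A (replicates 1 and 2 of each group labelled Zeb2-deficient, replicates 1 and 2 of the poly(I:C) controls and the untreated arrays) and B (the rest). The labels do not say what separates them. On the first component of the deviations from the group means, the sets did not overlap in 4 of 4 groups.

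Resistin family proteins are short, cysteine-rich and secreted. In mice Retnla is a hallmark of alternatively activated macrophages, where interleukin-4 and interleukin-13 induce it through the transcription factor STAT6 together with C/EBP factors, and it is also made by eosinophils and airway epithelium. Retnlg is known for its expression in mouse bone marrow and neutrophils. Retnlb is an intestinal goblet cell gene, and Retn, resistin itself, is an adipocyte gene in mice.

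Retnla and Retnlg lie on mouse chromosome 16 with Retnlb, and the RefSeq gene table (GRCm38.p6) lists no other gene among the 3. Retn lies on chromosome 8. The promoters of Retnla and Retnlg are shown because these genes differed by more than 5 on the log2 scale between the groups of monocytes, and because their sequences can be laid side by side. Retnlb had no entry among the promoter windows used, so its promoter was neither searched nor compared with theirs. The first pair is the 250 bases before each annotated start on the plus strand (RefSeq, GRCm38.p6), at chr16:48842359-48842608 for Retnla and chr16:48872358-48872607 for Retnlg. Capitals mark matches to TTC and GAA with 4 bases between them, the spacing that STAT6 prefers, and to CACCTG, the E-box that Zeb factors bind.
Retnla: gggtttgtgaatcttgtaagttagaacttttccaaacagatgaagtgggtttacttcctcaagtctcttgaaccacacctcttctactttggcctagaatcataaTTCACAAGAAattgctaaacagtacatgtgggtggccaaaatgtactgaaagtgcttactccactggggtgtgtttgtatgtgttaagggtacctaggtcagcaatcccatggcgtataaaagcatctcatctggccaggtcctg
Retnlg: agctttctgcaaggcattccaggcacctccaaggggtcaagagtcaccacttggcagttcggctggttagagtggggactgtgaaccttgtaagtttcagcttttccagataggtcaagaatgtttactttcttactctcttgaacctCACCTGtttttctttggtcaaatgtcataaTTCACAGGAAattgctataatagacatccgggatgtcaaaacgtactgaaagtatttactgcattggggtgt

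A local alignment of the 300-base windows (the 250 bases before the start and the 50 after it) paired bases 1 to 227 of the Retnla window with bases 75 to 300 of the Retnlg window. Of 228 alignment columns, 178 were identical, or 78.1%. The best alignment of the Retnla window with that of Retn covered 11 columns. The annotated start of Retnlg therefore lies upstream of the position that matches the Retnla start, and distances to the starts differ between the genes.

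The second pair is the 70 bases around the STAT6-type match, at chr16:48842434-48842503 for Retnla and chr16:48872506-48872575 for Retnlg, on the plus strand. Here capitals mark the 51 positions at which both genes carry the same base at the same distance from the match.
Retnla: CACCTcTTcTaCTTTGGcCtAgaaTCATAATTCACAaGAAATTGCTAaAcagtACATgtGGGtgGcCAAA
Retnlg: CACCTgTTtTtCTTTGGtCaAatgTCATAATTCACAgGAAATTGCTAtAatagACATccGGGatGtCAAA

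The match TTCACAAGAA began 145 bases before the annotated start of Retnla, and the match TTCACAGGAA began 72 bases before that of Retnlg. This pattern of TTC, 4 bases and GAA reads the same on both strands and stood in 6.95% of all 32851 promoter windows of 300 bases in the RefSeq table. The C/EBP half-site pair TTGCNNAA, searched on both strands, stood in 10.8% of the windows. Retnla held it 134 bases before the start, 1 base after the STAT6-type match, and the Retnlg window held it 246 bases before the start on the minus strand. The E-box CACCTG, searched on both strands, was found in 20.2% of windows. It occurred in Retnlg, 102 bases before the start, but not in full in the Retnla window. At the same place in the second pair Retnla carries CACCTC, so the genes share CACCT there and differ in the base that follows. TATAAA stood in 13.6% of windows and lay 30 bases before the start of Retnla, and it was not in the Retnlg window. The windows of Retnla and Retnlg held no pair of GAAA with 2 bases between them, the core of interferon response elements (3.44% of windows), and no TTCNNNGAA, the spacing of other STAT factors (8.3%), on either strand. These matches are descriptions of letters in a window.

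Retnla was present in monocytes labelled Zeb2-deficient and at the low end of the arrays everywhere else. It read 8.49, 6.36, 9.47 and 9.44 (log2 intensity) in replicates 1 to 4 of the monocytes labelled Zeb2-deficient. It read 3.17, 2.67, 3.46 and 2.77 in replicates 1, 2, 4 and 5 of the poly(I:C) control monocytes. The groups did not overlap, and replicate 2 of the samples labelled Zeb2-deficient was the lowest of its group while still lying above every array of the other groups. In the monocyte comparison 5.11% of the 13387 genes tested were higher and 2.44% lower in samples labelled Zeb2-deficient at limma adjusted p below 0.05, 7.54% in all, and 10.04% had groups that did not overlap. In such bulk samples a larger share of cells with a given RNA and more of that RNA in each cell cannot be told apart.

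The group means of Retnla were 8.44 ± 1.46 in monocytes labelled Zeb2-deficient and 3.02 ± 0.37 in control monocytes (SD, n = 4 each), a measured difference of 5.43 ± 0.47 (SE). All 4 control values lay below the 40th percentile of their arrays (4.28 to 4.37 over the 9 monocyte arrays), where a value says little more than that the signal is low. Set against that percentile in place of the control values, the mean of the samples labelled Zeb2-deficient was at least 17.1-fold higher. The untreated control monocytes read 3.12, inside the range of the poly(I:C) controls.

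The spread of Retnla among the monocytes labelled Zeb2-deficient was wide, 3.10 on the log2 scale or 8.59-fold from the lowest to the highest array, against 1.10 or 2.15-fold for Retnlg. Both set B arrays were above both set A arrays for Retnla. Set A alone gave a measured difference from control monocytes of 4.51, and set B alone 6.34, with 2 arrays in each group. Against the 40th percentile in place of the control values it was at least 8.56-fold in set A and at least 34.0-fold in set B. Without replicate 2 of the monocytes labelled Zeb2-deficient it was 6.12 over all arrays.

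In neutrophils Retnla stayed low in both genotypes. It read 3.94, 3.69, 4.05 and 4.17 in neutrophils labelled Zeb2-deficient, and 3.56, 4.47, 4.61 and 3.75 in control neutrophils. The groups overlapped, and the means were 3.96 ± 0.20 and 4.10 ± 0.52 (SD, n = 4 each). The change was -0.13 ± 0.47 (SE), with a 95% interval of -1.12 to 0.86 and limma adjusted p = 0.999. Only 2 of the 4 control values, and none of the 4 in samples labelled Zeb2-deficient, exceeded the 40th percentile of their arrays (about 4.4 to 4.5 over the 9 neutrophil arrays), so a change below that level would not have been detectable. The untreated control neutrophils read 3.73. The lowest monocyte array labelled Zeb2-deficient was 3.37-fold above the highest of the neutrophil arrays with poly(I:C).

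Retnlg followed another pattern, with a high level in every neutrophil sample and an intermediate one in monocytes labelled Zeb2-deficient. It read 10.95, 9.85, 10.93 and 10.62 in monocytes labelled Zeb2-deficient, and 5.04, 4.40, 5.77 and 4.95 in control monocytes. The groups did not overlap, and replicate 2 was again the lowest of the samples labelled Zeb2-deficient. The means were 10.59 ± 0.52 and 5.04 ± 0.56 (SD, n = 4 each), a difference of 5.55 ± 0.24 (SE), or 46.8-fold. Unlike Retnla, its difference was alike in the array sets, at 5.68 in set A and 5.42 in set B. The untreated control monocytes read 4.65, inside the control range.

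In neutrophils Retnlg read 12.20, 12.20, 12.40 and 12.40 in samples labelled Zeb2-deficient. It read 12.25, 12.16, 12.39 and 12.39 in controls and 12.17 in the untreated control. The means were 12.30 ± 0.11 in neutrophils labelled Zeb2-deficient and 12.30 ± 0.11 in control neutrophils (SD, n = 4 each). The change was 0.0009 ± 0.24 (SE), with a 95% interval of -0.50 to 0.50, or 0.707-fold to 1.42-fold, and a limma adjusted p of 1.0 when rounded. An exact two-sided permutation test over the 8 arrays, whose smallest possible p is 0.0286, gave p = 0.971 for Retnlg and p = 0.6 for Retnla. These values stand near the top of the array's range, which ended at 13.5, so a further rise may be compressed.

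**Figure D1:**
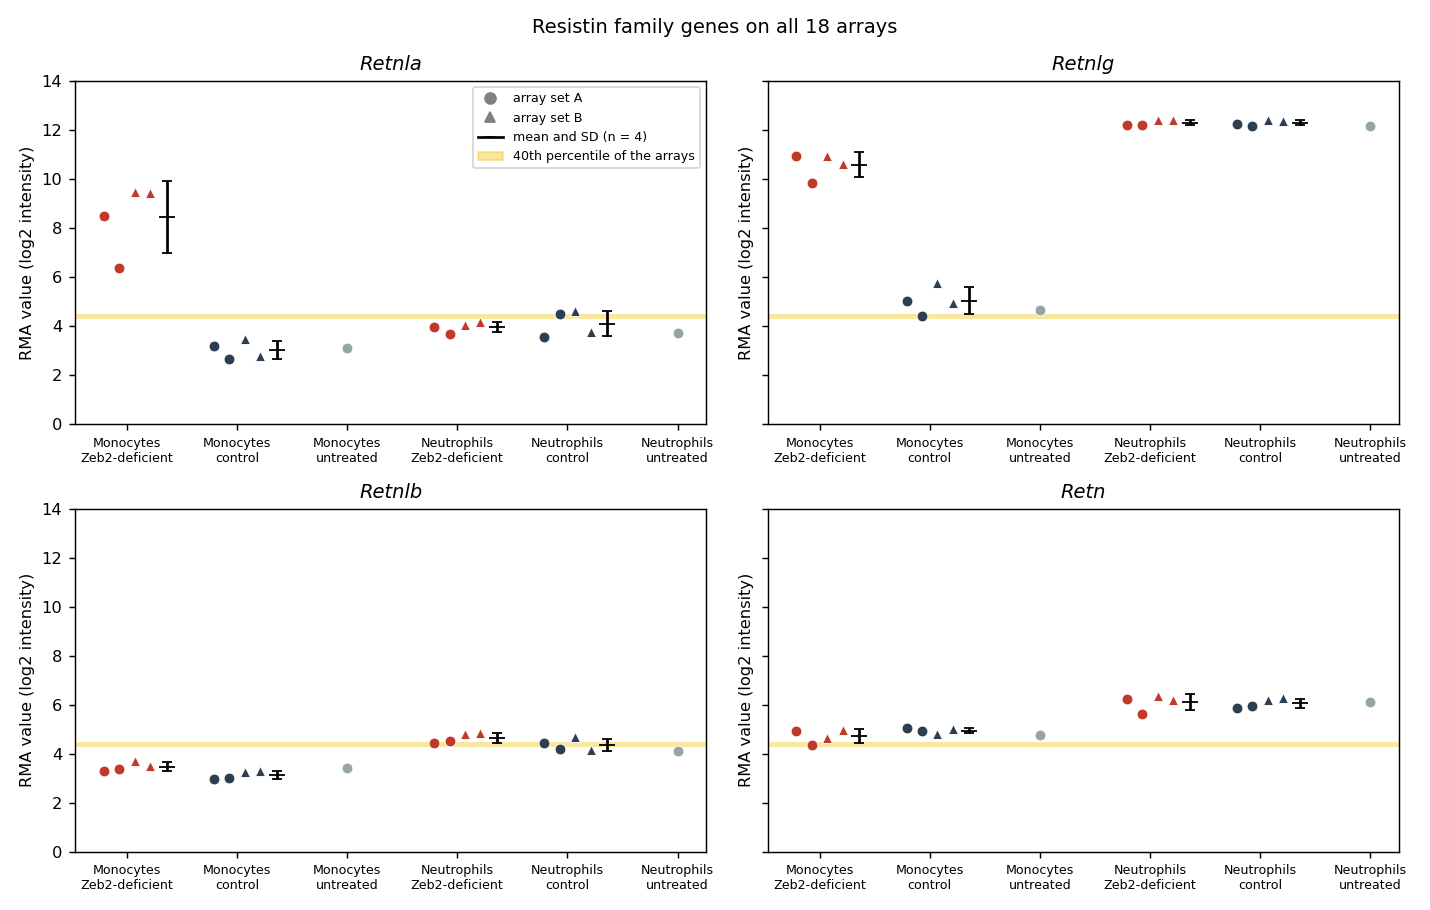
The RMA value (log2 intensity) of Retnla, Retnlg, Retnlb and Retn on each of the 18 arrays by group, with array sets as circles (A) and triangles (B), the group mean and SD (n = 4) as black bars, and the range of the arrays' 40th percentiles as a yellow band. Retnla is well above that band in monocytes labelled Zeb2-deficient (6.36 to 9.47), whereas Retnlg is at 9.85 to 10.95 there and at 12.16 to 12.40 in neutrophils.

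Ordered by level, Retnlg was highest in neutrophils of all 3 groups, which did not differ beyond their spread. It came next in monocytes labelled Zeb2-deficient, 1.71 below neutrophils labelled Zeb2-deficient (3.28-fold), and last in poly(I:C) control and untreated monocytes. The order for Retnla put monocytes labelled Zeb2-deficient first. It was at least 16.0-fold above neutrophils labelled Zeb2-deficient, whose 4 values were replaced by the 40th percentile of their arrays because all lay below it. The neutrophil groups followed, and control monocytes were 1.08 below control neutrophils, a difference between values that mostly lay below the 40th percentile. In neutrophils 0.105% of genes tested were higher and 0.0149% lower in samples labelled Zeb2-deficient, 0.120% in all, and 3.43% had groups that did not overlap. On the arrays numbered 1, 2 and 4, which both genotypes share, 203 genes were lower in monocytes labelled Zeb2-deficient with the number as a replicate block, and 62 on the same arrays without it, against 326 on all arrays. The higher genes numbered 485 with the block and 279 without it on those arrays.

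The other family members did not pass the test in either cell type. Retnlb read 3.30, 3.37, 3.70 and 3.51 in monocytes labelled Zeb2-deficient and 2.96, 3.01, 3.27 and 3.28 in control monocytes. All 8 lay below the 40th percentile. The groups did not overlap, yet the difference of 0.34 ± 0.14 (SE) did not pass (limma adjusted p = 0.153). In neutrophils Retnlb had means of 4.66 ± 0.20 in samples labelled Zeb2-deficient and 4.37 ± 0.25 in controls (SD, n = 4 each), a change of 0.29 that did not pass (limma adjusted p = 0.971). Retn had means of 4.73 ± 0.27 in monocytes labelled Zeb2-deficient and 4.95 ± 0.10 in control monocytes (SD, n = 4 each; limma adjusted p = 0.501), and of 6.10 ± 0.32 in neutrophils labelled Zeb2-deficient and 6.06 ± 0.19 in control neutrophils (limma adjusted p = 0.999). Retn was lower in control monocytes than in control neutrophils, with a difference of -1.11 ± 0.16 (SE, limma adjusted p = 9.08e-06), where 28.7% of genes tested were lower in monocytes. Retnlb exceeded the 40th percentile on 5 arrays, all of them neutrophils, so it entered the test only through those arrays and its difference between the cell types is not given as a test.

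The genes on either side of the 3 resistin-like genes gave no change past the threshold. Dppa2, Morc1 and Trat1 precede the stretch and Dzip3, Cip2a and Myh15 follow it. Dppa2, Morc1, Trat1 and Myh15 were above the 40th percentile on 0 of 18 arrays and were not tested. Dzip3 changed by -0.0046 ± 0.18 in monocytes (SE, limma adjusted p = 0.993) and Cip2a, an inhibitor of the phosphatase PP2A, by 0.80 ± 0.27 (SE, limma adjusted p = 0.0875).

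**Figure D2:**
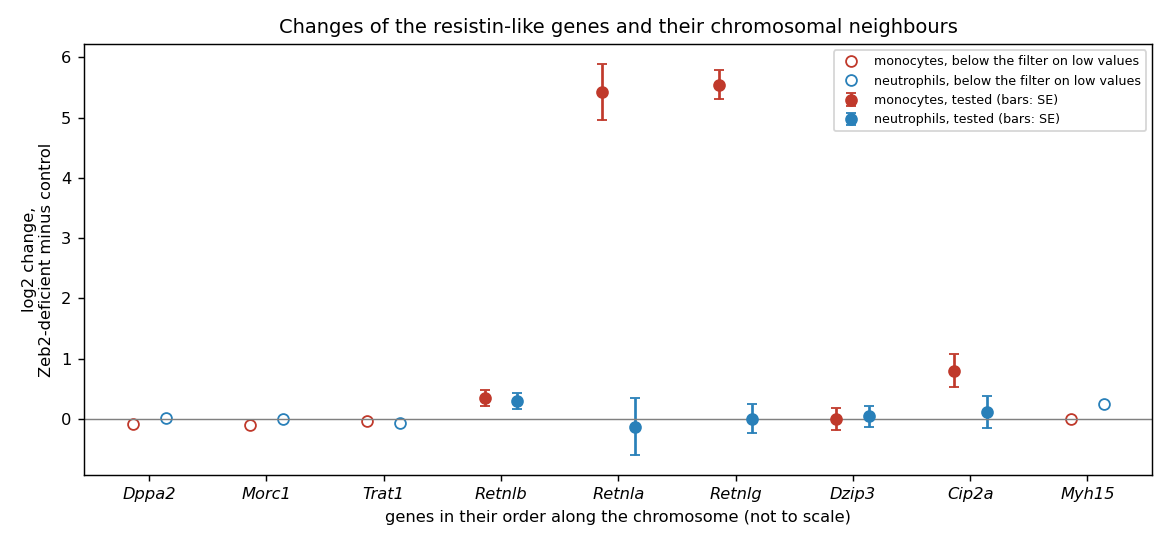
The log2 change (labelled Zeb2-deficient minus control) of each gene in chromosomal order, in monocytes (red) and neutrophils (blue), with SE bars for tested genes and open circles for genes below the filter on low values. Retnla and Retnlg stand at 5.43 and 5.55 in monocytes, while Retnlb between them and Trat1 is at 0.34 and the other neighbours lie between -0.10 and 0.80.

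The genes that carry signals into Retnla in macrophages were examined as a list of interleukin-4 and interleukin-13 signalling genes, of which 10 of 15 were tested. In monocytes labelled Zeb2-deficient 1 rose, 0 fell and 9 did not pass, and the median was -0.13, against -0.034 over all genes tested. Beside this and every list below stand the shares of all genes tested. These were 5.11% higher and 2.44% lower in monocytes, and 0.105% higher and 0.0149% lower in neutrophils. The 1 was the kinase Jak2, 8.13 against 7.53 in control monocytes, a change of 0.61 ± 0.13 (SE, limma adjusted p = 0.00693). In array set A alone, with 2 arrays a group, 0 of the 10 rose. The receptor chains Il4ra and Il13ra1 were at -0.14 and -0.59 (limma adjusted p = 0.652 and 0.217). Stat6 averaged 8.11 in monocytes labelled Zeb2-deficient and 8.40 in control monocytes, a difference of -0.29 ± 0.17 (SE, limma adjusted p = 0.386). In neutrophils 0 of 10 passed in either direction.

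Of the alternative activation list, which holds genes that interleukin-4 induces together with Retnla in macrophages, 16 of 22 were tested. In monocytes labelled Zeb2-deficient 1 rose, 4 fell and 11 did not pass, with a median of -0.15. The 4 include Irf4 and Clec10a, which entered the test only with the control monocytes counted, as given below. In array set A alone 0 fell. The 1 that rose was the chitinase-like Chil1, which neutrophils also express and which read 10.98 in control neutrophils. It read 10.36, 8.71, 9.84 and 9.93 in monocytes labelled Zeb2-deficient and 4.77, 4.95, 5.78 and 4.43 in control monocytes, a change of 4.73 ± 0.28 (SE, limma adjusted p = 1.05e-08). Its change in monocytes exceeded that in neutrophils by 4.52 (limma adjusted p of the difference 6.29e-06). A difference between the cell types passed for 2.68% of all genes tested, but Chil1 was named for its change in monocytes, so nothing is read from that share.

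The mannose receptor Mrc1 fell by 1.35 ± 0.21 (SE, limma adjusted p = 4.45e-04), with 4.53 in monocytes labelled Zeb2-deficient and 5.88 in control monocytes. The transcription factor Irf4 also fell by 1.35 (4.78 and 6.13, limma adjusted p = 0.00883), and the beta-glucan receptor Clec7a fell by 0.84 (8.11 and 8.95, limma adjusted p = 0.00318). The lectin Clec10a, at -0.69, was the fourth (limma adjusted p = 0.0487), named after its value was seen. Clec10a was above the 40th percentile on 6 arrays and Irf4 on 7, and all the poly(I:C) control monocytes were among them. Without those control arrays neither gene would have passed the filter on low values. Their differences are therefore descriptions, and their p-values are not read as tests of a fall. Among the classic partners of Retnla, the arginase gene Arg1 was at 4.14 in monocytes labelled Zeb2-deficient and 4.37 in control monocytes (limma adjusted p = 0.426), and Chil3 was at 11.4 and 11.1 (limma adjusted p = 0.530). These 2 genes were also named after their values were seen. In neutrophils 1 of 16 rose, Egr2, by 1.45 ± 0.24 (SE, limma adjusted p = 0.0111), named after its value was seen.

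Of 6 C/EBP factors tested, 1 rose and 0 fell in monocytes labelled Zeb2-deficient. Cebpe, the factor of late granulocyte maturation and also a member of the mature neutrophil list below, rose by 2.29 ± 0.32 (SE, limma adjusted p = 1.77e-04), with 8.54 in monocytes labelled Zeb2-deficient and 6.25 in control monocytes, against 8.95 in control neutrophils. The other five were between -0.39 (Cebpa) and 0.24 (Cebpd) and did not pass. Of 5 reported receptors and partners of resistin family proteins, 0 passed in monocytes by limma and 0 passed in neutrophils. They are Cap1, Tlr4, its co-receptors Ly96 and Cd14, and Btk. In monocytes 1 of them, Ly96, had an unadjusted limma p below 0.05 (0.0338), as did 2699 of the 13387 genes tested. Ly96 was at -0.62 and Tlr4 at 0.23 in monocytes (limma adjusted p = 0.198 and 0.551).

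**Figure D3:**
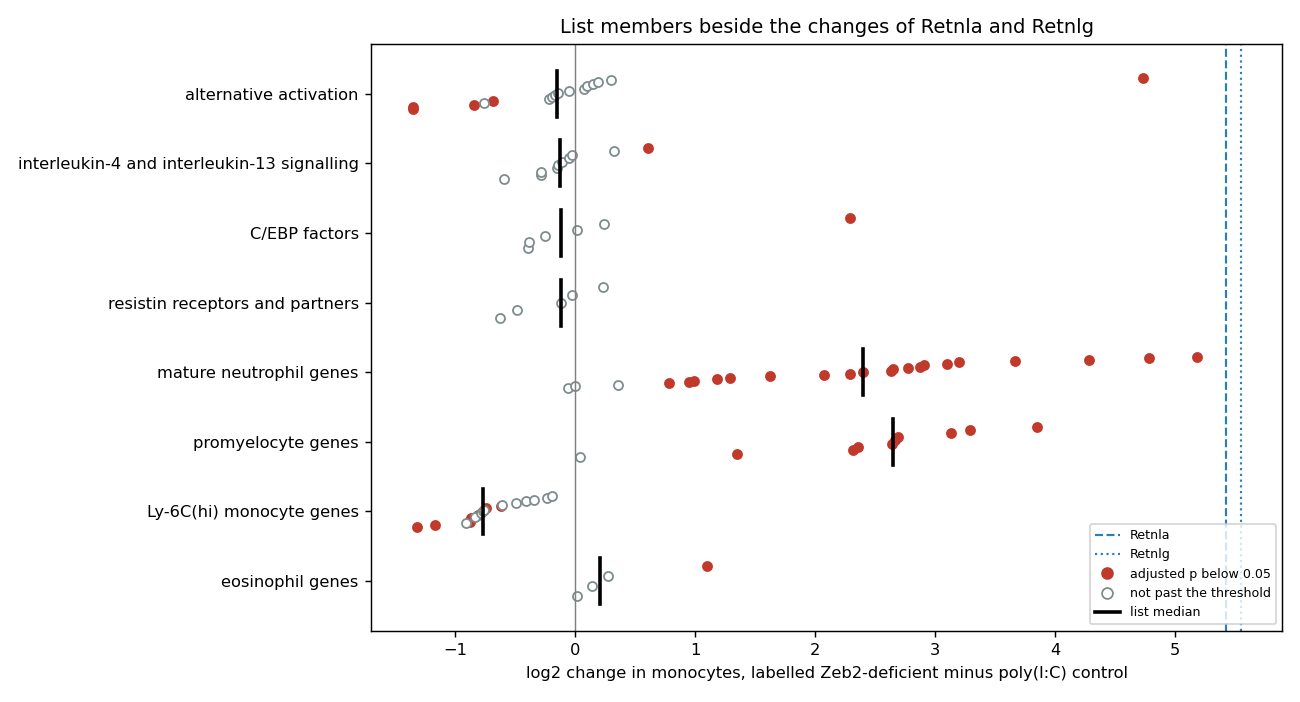
The log2 change in monocytes (samples labelled Zeb2-deficient minus their poly(I:C) controls) of each tested member of 8 gene lists, filled where the limma adjusted p was below 0.05, with list medians as black bars and the changes of Retnla and Retnlg as blue lines. The medians of the alternative activation and interleukin-4 lists lie at -0.15 and -0.13, and those of the mature neutrophil and promyelocyte lists at 2.39 and 2.65.

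The genes whose profile over the 18 arrays was most like that of each member were found by the root mean square difference of log2 values after each gene's mean was subtracted, among 12560 tested genes. The arrays of a group share their sort and genotype, so the likeness mostly reflects group means. Retnlg was most like Ly6g, the neutrophil surface antigen (0.48), the stefin Stfa3 (0.52), Chil1 (0.59), the interleukin Il1f9 (0.66), AA467197 (0.86) and lactoferrin, Ltf (0.87). Ly6g, for example, averaged 9.08 in monocytes labelled Zeb2-deficient and 3.90 in control monocytes, and 11.7 in neutrophils labelled Zeb2-deficient and 11.8 in control neutrophils. The median difference of all genes from Retnlg was 3.12.

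Retnla was most like the C-type lectin Clec4b2 (0.64), followed by the lectin Fcnb (1.0), Ms4a3 (1.06), Nkg7 (1.07), the adhesion molecule Vcam1 (1.12) and the endothelial lipase Lipg (1.12), against a median of 2.18 for all genes. Clec4b2 read 9.13, 7.61, 9.26 and 9.68 in monocytes labelled Zeb2-deficient and 4.64, 4.60, 5.74 and 4.75 in control monocytes. Its means were 5.43 in neutrophils labelled Zeb2-deficient and 5.24 in control neutrophils. Fcnb, Ms4a3 and Nkg7, which stand in the promyelocyte list, averaged 9.75 to 9.96 in monocytes labelled Zeb2-deficient and 6.06 to 6.83 in control monocytes, and 4.84 to 6.21 in control neutrophils. In all 6 genes replicate 2 was the lowest of the monocytes labelled Zeb2-deficient. Retnla and Retnlg were unlike each other, with a difference of 3.17, close to the median of 3.12 for all genes from Retnlg. Of the 12560 genes, Retnlg stood 12514th in likeness to Retnla, while Retnla stood 7143rd in likeness to Retnlg. The measure does not scale profiles, whose own root mean square was 2.14 for Retnla and 3.14 for Retnlg. A gene with large changes therefore ranks low whatever its pattern, unless the pattern matches closely.

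Because Retnlg is a neutrophil gene, its level in monocytes was set beside those of other neutrophil genes. Of 23 mature neutrophil genes tested, 20 rose and 0 fell in monocytes labelled Zeb2-deficient, with a median of 2.39. The 23 summed to a linear intensity of 31109 to 43933 in monocytes labelled Zeb2-deficient and 8236 to 21611 in control monocytes, and 79331 to 82578 in control neutrophils. The part of neutrophils in the sort in these values was not tested. Retnlg in monocytes labelled Zeb2-deficient was at 39.3%, 18.3%, 38.8% and 31.3% of its mean level in control neutrophils in replicates 1 to 4, against 0.419% to 1.08% in control monocytes.

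Of the 23 neutrophil genes, 9 were below 5% of the neutrophil level in control monocytes, a limit chosen after the values were seen. Over all 23 genes the level in monocytes labelled Zeb2-deficient was 2.89% to 91.3% of that in control neutrophils, with a median of 31.7%, beside 30.6% for Retnlg. The 9 were at 2.89% to 41.8%, with a median of 14.8%, and 1 of them, Ltf, was above Retnlg. Mmp9, the gelatinase of late granules, was at 2.89%, Ly6g at 14.8% and Stfa3 at 18.6%. Replicate 2 was the lowest of the 4 for 9 of 9 genes, as it was for Retnlg and Retnla.

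**Figure D4:**
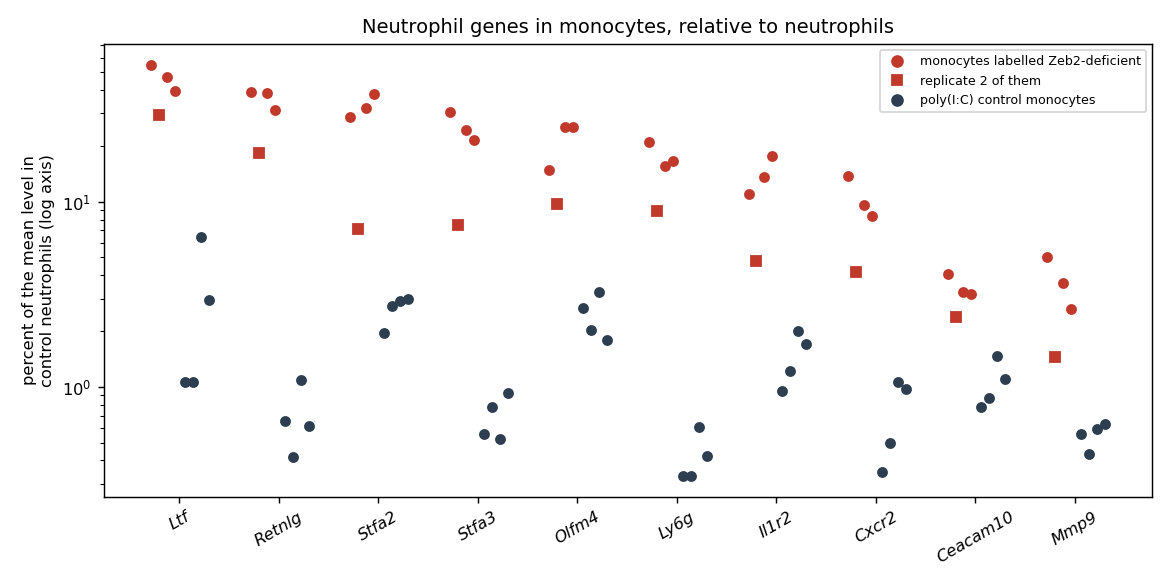
The level of Retnlg and of the 9 neutrophil genes below 5% in control monocytes, as percent of the mean in control neutrophils on a log axis, for each array of monocytes labelled Zeb2-deficient (red, replicate 2 as squares) and of control monocytes (dark). Retnlg is at 18.3% to 39.3% in monocytes labelled Zeb2-deficient, and replicate 2 is the lowest red point of each gene.

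Retnla was near the low end of the array in neutrophils, at 3.56 to 4.61 on the 8 arrays with poly(I:C), so its level in monocytes labelled Zeb2-deficient exceeds that of the neutrophils measured here. Promyelocyte genes were also higher in that group: 9 of 10 rose and 0 fell, with a median of 2.65. They summed to 5148 to 17265 in monocytes labelled Zeb2-deficient, against 1965 to 5152 in control monocytes and 1910 to 2178 in control neutrophils. The monocyte ranges of this sum overlapped. Nkg7 rose by 3.85 (limma adjusted p = 7.67e-04) and Ms4a3 by 3.29 (limma adjusted p = 0.00148). The part of promyelocytes in the sort in these values was not tested.

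Markers of other cell types that a sort could hold were also read. Of the 10 eosinophil genes 7 were on the array and 4 were tested. The eosinophil peroxidase Epx and the receptor Il5ra were above the 40th percentile on 0 of 18 arrays and Ccr3 on 1, while Siglecf rose by 1.10 (limma adjusted p = 0.00618), with 6.59 in monocytes labelled Zeb2-deficient, 5.49 in control monocytes and 6.13 in control neutrophils. The 7 summed to 143 to 239 in monocytes labelled Zeb2-deficient and 132 to 145 in control monocytes. In neutrophils they summed to 190 to 313 in samples labelled Zeb2-deficient and 166 to 195 in controls. The part of eosinophils in the sort in these values was not tested. Of 6 mast cell and basophil genes tested 2 rose, the receptor Kit by 2.01 and the histidine decarboxylase Hdc by 1.35 (limma adjusted p = 2.56e-04 and 0.00127), while the mast cell protease Cpa3 and the IgE receptor chains Fcer1a and Ms4a2 were above the 40th percentile on 0 of 18 arrays. The 9 on the array summed to 223 to 584 in monocytes labelled Zeb2-deficient and 167 to 232 in control monocytes. Control neutrophils gave 1874 to 1958 for this sum, and neutrophils labelled Zeb2-deficient 1696 to 2079. The mean of Hdc was 10.7 for control neutrophils and 5.39 for control monocytes, and that of Kit 6.05 and 4.52. Neither gene therefore marks mast cells or basophils alone on these arrays, and which cells gave the rise was not tested.

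Of 10 macrophage genes tested 2 rose and 0 fell, Vcam1 by 2.43 and the iron exporter Slc40a1 by 2.26 (limma adjusted p = 0.00817 and 9.53e-05). Slc40a1 was also a gene of the sorted neutrophils, with a mean of 8.30 for their controls and 3.43 for control monocytes. Vcam1 had means of 5.29 and 5.03 there. Which cells gave these rises was not tested. The 13 on the array summed to 887 to 1151 in monocytes labelled Zeb2-deficient and 920 to 1218 in control monocytes, ranges that overlap. Of 9 conventional dendritic cell genes tested 3 fell and 0 rose, among them Cd209a by 1.49 and Flt3 by 0.88 (limma adjusted p = 5.07e-05 and 0.0107). The remaining gene was Clec10a, whose p-value is not read as a test, as given above. The 12 on the array summed to 693 to 1059 in monocytes labelled Zeb2-deficient and 1026 to 1604 in control monocytes. In the Ly-6C(hi) monocyte list 8 of 19 fell and 0 rose, with a median of -0.77. Tmem176b fell by 1.32 and Cx3cr1 by 1.17 (limma adjusted p = 1.45e-04 and 0.0110). Of adipocyte and stroma genes 0 of 3 tested passed by limma. Lpl, at -0.68, had an unadjusted p of 0.0202 (limma adjusted p = 0.144) and Col1a1 was at -0.14 (limma adjusted p = 0.544). An unadjusted p below 0.05 was found for 2699 of the 13387 genes tested.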

How the data were processed

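Per the labels' protocols, sorted cells went through RNAqueous-Micro extraction, Ovation PicoSL amplification and biotin labelling before hybridization. The values the authors deposited are log2 intensity per probe set, which the submitters' processing notes credit to RMA. The sources used here do not give its version or background step. Values lay between 1.05 and 13.5 and the arrays' medians between 4.81 and 4.92. The platform annotation pairs 21789 of the 30177 probe sets with 1 gene symbol, 1621 with several and 6767 with none. Where a gene had several probe sets, the highest mean was kept. The test covered the 13387 genes that stood above the 40th percentile of an array on 4 or more of the 18. Retnla passed on 6 arrays, 4 of them monocytes labelled Zeb2-deficient.

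The tests used limma 3.58.1 (R 4.3.3), with 1 mean per group fitted to the 18 arrays together, 12 residual degrees of freedom and a trend of the variance with intensity. P-values are two-sided, with Benjamini-Hochberg adjustment over all genes tested, and the fit was tested on simulated data. The single untreated arrays entered no contrast, and the number of arrays limits the precision. Monocyte and neutrophil arrays of a genotype share numbers in the titles. A pairing between the cell types was neither examined nor fitted, so comparisons between them treat the arrays as independent. The members and lists were chosen with earlier results of these data known. The motifs were chosen with the sequences in view.

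The genes named are the resistin family, up to 4 called members of each programme list and up to 2 of each cell list by size of change (otherwise the 2 smallest p), the 6 genes most like each member, leaving out clone and small RNA names, and 3 chromosomal neighbours on each side. Control and Zeb2-deficient arrays that share a number in the titles had correlated deviations in 6 of 6 pairs (0.183 to 0.428), which counts as pairing here, although 10 other pairs within an array set gave 0.127 to 0.348 and 16 pairs across sets gave -0.344 to -0.0850. Alternatives were quantile normalization, other filters, no variance trend, only the arrays compared, the array set as a block or alone, the replicate block on the numbers that both genotypes have (1, 2 and 4, so 2 arrays of each cell type are left out), each array left out and an exact permutation test. Promoters are from RefSeq and were aligned with Biopython 1.88.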

Additional observations from a re-analysis of the deposited data

Results flagged for a closer look

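In 10 of 184 groups of 4 arrays, over 46 genes, 1 array lay apart from the other three, about what chance gives at 1 in 20. Retnla and Retnlg had no such array. Tlr4 read 7.93 on 1 array of neutrophils labelled Zeb2-deficient, against 8.72 to 8.80 on the others. In monocytes labelled Zeb2-deficient, 1 array was high for Cd209a (5.06, others up to 4.54), Clec10a (4.96, up to 4.05) and Egr2 (5.56, up to 4.95). In control monocytes 1 array was low for Clec7a (8.84, others 8.99), and 1 was high for Vcam1 (6.00, others up to 4.84), Clec4b2 (5.74, up to 4.75), Zeb2 (10.08, up to 9.88), Arg1 (4.59, up to 4.30) and Il13ra1 (8.34).

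The changes of 13 named genes, of 40 tested, differed between cell types by limma's test of the difference. Most were named by the size of their change in monocytes, which favours such a difference, so their number is not set against the share of all genes. Relative to neutrophils, the change in monocytes was higher by 5.29 for Ly6g (adjusted p = 2.12e-08), 4.77 for Stfa3 (1.98e-05), 4.52 for Chil1 (6.29e-06), 4.5 for Ltf (1.87e-04), 2.89 for Fcnb (0.00201), 2.49 for Mmp9 (0.00102), 2.36 for Slc40a1 (0.00390), 2.35 for Cebpe (0.00717), 1.74 for Kit (0.0283) and 1.44 for Hdc (0.0215). It was lower for Egr2, Cd209a and Tmem176b, at -1.62, -1.36 and -1.13 (adjusted p = 0.0105, 0.00609 and 0.0202). Ltf, at 4.5, and Fcnb, at 2.89, are list members named for their likeness to Retnlg and Retnla. They count among the 13, but their differences are descriptions and not tests. For Retnla, Retnlg and the likeness genes in no list the difference was not tested, since they were chosen on these values.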

How the results depend on the processing

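The monocyte differences of Retnla and Retnlg kept their direction under every alternative run, from 4.51 to 6.34 and from 5.34 to 5.80 on the log2 scale. In neutrophils neither passed under any of 18 alternatives (adjusted p 0.961 to 1.0 for Retnla and 0.993 to 1.0 for Retnlg). The sign for Retnlg turned with quantile normalization (-0.0020), in array set A alone (-0.0067) and on the arrays numbered 1, 2 and 4, with or without the replicate block (-0.0036), and ran from -0.045 to 0.034 as each array was left out. For Retnla it ran from -0.31 to 0.037, the positive value without control replicate 4. The number of genes called varied more. Higher calls in monocytes were 684, but 397 with only the arrays compared, 192 in array set A, 279 on the arrays numbered 1, 2 and 4 and 446 to 1050 with 1 array left out, where replicate 2 of the samples labelled Zeb2-deficient gave the 1050 and replicate 3 the 446. Lower calls were 326, but 103 with only the arrays compared, 596 with the array set as a block, 23 in set A, 714 in set B, 62 on the arrays numbered 1, 2 and 4, 203 on those arrays with the replicate block and 132 to 951 with 1 array left out, by over 1.5 times for each of the 8 arrays. Higher calls in neutrophils were 14, but 8 with only the arrays compared or those numbered 1, 2 and 4, 3 in set A and 7 to 15 with 1 array left out (7 without Zeb2-deficient replicate 1, 8 without control replicate 4). Lower calls were 2, but 1 with quantile normalization, only the arrays compared, set B or the arrays numbered 1, 2 and 4 with or without the replicate block, 0 in set A, and 1 to 4 with 1 array left out. Of the alternative activation genes 4 were lower, but 2 with only the arrays compared or those numbered 1, 2 and 4, 0 in set A and 3 to 5 with 1 array left out. The 4 include Irf4 and Clec10a, which passed the filter only with the control monocytes counted. Of the interleukin-4 genes 1 was higher, but 0 in set A or on the arrays numbered 1, 2 and 4, and 0 were lower, but 2 in set B and 0 to 1 with 1 array left out. Of the 6 genes most like Retnla, 1 was also among the 6 by Pearson correlation. The cause was not tested. The fit on the arrays numbered 1, 2 and 4 without the block was chosen after seeing the data. The mature neutrophil genes called higher stayed at 17 to 20. Retnla lay below the 40th percentile on 12 of 18 arrays, which limits its fold.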
